A study of Homo sapiens with 41 samples.

Results

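The regions described here are Elongin A peaks that lay just upstream of protein-coding genes with no coding neighbour starting in the other direction. A peak was chosen when its summit, the position of strongest signal, was more than 100 bp and at most 1000 bp upstream of the nearest transcription start site (TSS) of a protein-coding gene. That TSS also had to be one-way, meaning that no other protein-coding gene started on the opposite strand within 1000 bp upstream of it. The choice used only positions, so peak heights, overlaps with other peak lists and base composition played no part in it. Of 8720 peaks in the goat antibody list, 987 met the rule, and they belonged to 922 genes. These genes made up 4.73% of the 19498 protein-coding genes with a one-way TSS (Wilson 95% interval, 4.44 to 5.04%).

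The cells were wild type DLD1, a line grown from a human colon cancer, and had received no siRNA. The goat antibody list of Elongin A came from CUT&RUN, in which a nuclease tethered by the antibody releases the DNA around the bound protein, with 2 replicates and 1 goat IgG control in cells fixed with formaldehyde. A second CUT&RUN list of 2338 peaks came from 1 sample with a mouse antibody and was labelled with a mouse IgG control, and a list of 186 peaks came from 1 ChIP-seq sample with an input control. Both replicates of the goat antibody are covered by 1 list, so no value below has a replicate error, no test over samples was possible, and the depth behind each peak is unknown. All intervals of shares are Wilson 95% intervals, which cover counting error only. As a check of the cell type by position alone, goat antibody peaks were counted at 20 colon epithelial genes. At least 1 lay in the gene or within 1000 bp of it at 9 of them (45%), beside 21.4% of all coding genes. The 9 included CDX2, EPCAM, CDH1, KRT8 and KRT18, and the other 11, among them KRT20, VIL1 and CDX1, had none. A peak is not a measure of expression.

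Elongin A is the largest subunit of Elongin, a complex with the small proteins Elongin B and Elongin C that stimulates elongation by RNA polymerase II (RNAPII) on purified templates. RNAPII promoters in mammals usually start transcription in both directions, and the upstream antisense transcript is often short, unstable and absent from gene annotations. A promoter that is one-way on the gene map can therefore still carry RNAPII on its upstream side.

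The sequences at 10 of these peaks are shown to make the regions concrete. They are the 200 bp centred on the goat antibody summit at the 10 upstream peaks with the highest fold enrichment among those that also overlapped a mouse antibody peak and whose window touched no annotated exon. They are written 5′ to 3′ on the strand of the gene, from the GRCh37 (hg19) assembly. Capitals mark a match on either strand to 1 of 16 short promoter motifs that were searched. In TAF12, SMC2 and B3GALT4 none was found, and in POLG2 the AP-1 letters read the same on both strands and mark 1 place. The windows lie at chr1:28975371-28975570 (TAF12, minus strand), chr5:137800863-137801062 (EGR1, plus), chr9:33391718-33391917 (AQP7, minus), chr9:106856052-106856251 (SMC2, plus), chr17:62493375-62493574 (POLG2, minus), chr16:58664113-58664312 (CNOT1, minus), chr17:46671556-46671755 (HOXB5, minus), chr22:35653137-35653336 (HMGXB4, plus), chr6:33244335-33244534 (B3GALT4, plus) and chr1:78469828-78470027 (DNAJB4, plus).
TAF12: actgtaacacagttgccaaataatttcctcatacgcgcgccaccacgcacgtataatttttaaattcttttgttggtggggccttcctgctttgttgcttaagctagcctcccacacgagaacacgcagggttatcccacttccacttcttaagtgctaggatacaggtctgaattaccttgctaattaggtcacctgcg
EGR1: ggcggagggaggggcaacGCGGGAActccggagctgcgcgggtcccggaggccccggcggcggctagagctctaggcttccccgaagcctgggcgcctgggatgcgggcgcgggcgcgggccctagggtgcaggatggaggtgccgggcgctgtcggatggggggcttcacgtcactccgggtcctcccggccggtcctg
AQP7: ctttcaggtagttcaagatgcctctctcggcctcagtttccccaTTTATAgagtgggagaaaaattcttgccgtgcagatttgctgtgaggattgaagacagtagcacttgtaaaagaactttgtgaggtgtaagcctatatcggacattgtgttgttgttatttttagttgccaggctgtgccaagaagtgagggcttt
SMC2: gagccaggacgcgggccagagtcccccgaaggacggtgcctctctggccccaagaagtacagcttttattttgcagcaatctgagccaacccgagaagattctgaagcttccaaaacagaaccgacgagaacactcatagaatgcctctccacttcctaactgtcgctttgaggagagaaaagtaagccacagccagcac
POLG2: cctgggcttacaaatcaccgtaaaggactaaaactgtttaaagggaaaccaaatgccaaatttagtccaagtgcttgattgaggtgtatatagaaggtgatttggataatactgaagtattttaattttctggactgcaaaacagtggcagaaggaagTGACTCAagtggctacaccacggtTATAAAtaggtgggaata
CNOT1: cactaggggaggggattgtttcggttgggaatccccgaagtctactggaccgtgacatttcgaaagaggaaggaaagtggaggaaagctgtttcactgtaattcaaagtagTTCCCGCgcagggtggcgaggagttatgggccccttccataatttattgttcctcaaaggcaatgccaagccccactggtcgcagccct
HOXB5: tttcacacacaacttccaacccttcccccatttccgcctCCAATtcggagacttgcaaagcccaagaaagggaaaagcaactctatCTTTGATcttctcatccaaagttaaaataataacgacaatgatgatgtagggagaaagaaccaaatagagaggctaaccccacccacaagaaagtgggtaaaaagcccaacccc
HMGXB4: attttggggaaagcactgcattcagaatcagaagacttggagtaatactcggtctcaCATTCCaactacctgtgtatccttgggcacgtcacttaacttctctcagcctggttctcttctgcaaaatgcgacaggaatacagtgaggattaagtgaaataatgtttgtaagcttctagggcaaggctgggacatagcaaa
B3GALT4: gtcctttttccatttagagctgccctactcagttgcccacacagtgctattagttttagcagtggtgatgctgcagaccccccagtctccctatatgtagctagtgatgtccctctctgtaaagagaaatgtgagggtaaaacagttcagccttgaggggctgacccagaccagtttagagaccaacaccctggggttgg
DNAJB4: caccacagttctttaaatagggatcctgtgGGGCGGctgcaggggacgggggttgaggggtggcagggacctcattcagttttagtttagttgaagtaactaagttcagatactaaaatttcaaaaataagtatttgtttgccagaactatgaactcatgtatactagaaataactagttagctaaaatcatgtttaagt

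These windows differed widely in composition. The EGR1 window was 76.5% G and C with a ratio of observed to expected CpG of 0.851, and it held the E2F letters GCGGGAA on the gene strand. EGR1 encodes an immediate early transcription factor. The POLG2 window, upstream of the gene for the accessory subunit of mitochondrial DNA polymerase, was 38.5% G and C and held the AP-1 and TATA box letters. The B3GALT4 window was 50% G and C and held no CpG at all. The AQP7 window should be read with care, because the 32 bp at its summit occurred 5 times in the genome, so that its reads could have come from any copy.

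The upstream peaks were most frequent between 200 and 300 bp from the TSS. Ranges of distance are given without their lower limit, so that 100 to 300 bp begins beyond 100 bp. The median distance was 319 bp (95% interval of the median, 304 to 331 bp), with quartiles at 217 and 513 bp. There were 448 peaks at 100 to 300 bp, 281 at 300 to 500 bp and 258 at 500 to 1000 bp, and the fullest 50 bp bin, with 128 summits, lay at 200 to 250 bp. Downstream of one-way TSSs, the same distance classes held 303, 100 and 243 summits. Of all 1633 summits 100 to 1000 bp from a one-way coding TSS, 60.4% were upstream (58.1 to 62.8%).

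The surplus on the upstream side came from 200 to 500 bp, where 529 summits were upstream and 197 downstream (72.9% upstream, 69.5 to 76.0%). At 100 to 200 bp the sides held 200 and 206 summits (49.3% upstream, 44.4 to 54.1%), and at 500 to 1000 bp they held 258 and 243 (51.5%, 47.1 to 55.8%). Because genes have many annotated TSSs, and these crowd inside genes, both sides are not equally open to assignment when each summit goes to its nearest TSS. With only the Ensembl canonical TSS of each gene, a setting chosen after seeing the data, 495 summits were 200 to 500 bp upstream and 100 downstream (83.2% upstream, 80 to 86.0%). In that setting the search for a partner also used canonical TSSs only, so the set of one-way TSSs was not the same.

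The mouse antibody list, which the rule did not use, also had more summits upstream than downstream. It held 296 peaks 100 to 1000 bp upstream and 192 downstream of a one-way coding TSS (60.7% upstream, 56.3 to 64.9%). At 200 to 500 bp the counts were 180 and 66 (73.2%, 67.3 to 78.3%), and 147 and 37 (79.9%, 73.5 to 85.0%) with canonical TSSs only. At 100 to 200 bp fewer of its summits were upstream than downstream, 47 against 69 (40.5% upstream, 32 to 49.6%). Its upstream peaks had a median distance of 344 bp. Both lists come from the same cell line and the same kind of experiment. The ChIP-seq list had 20 summits upstream and 16 downstream at 100 to 1000 bp (55.6%, 39.6 to 70.5%), an interval that includes an even split.

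**Figure D1:**
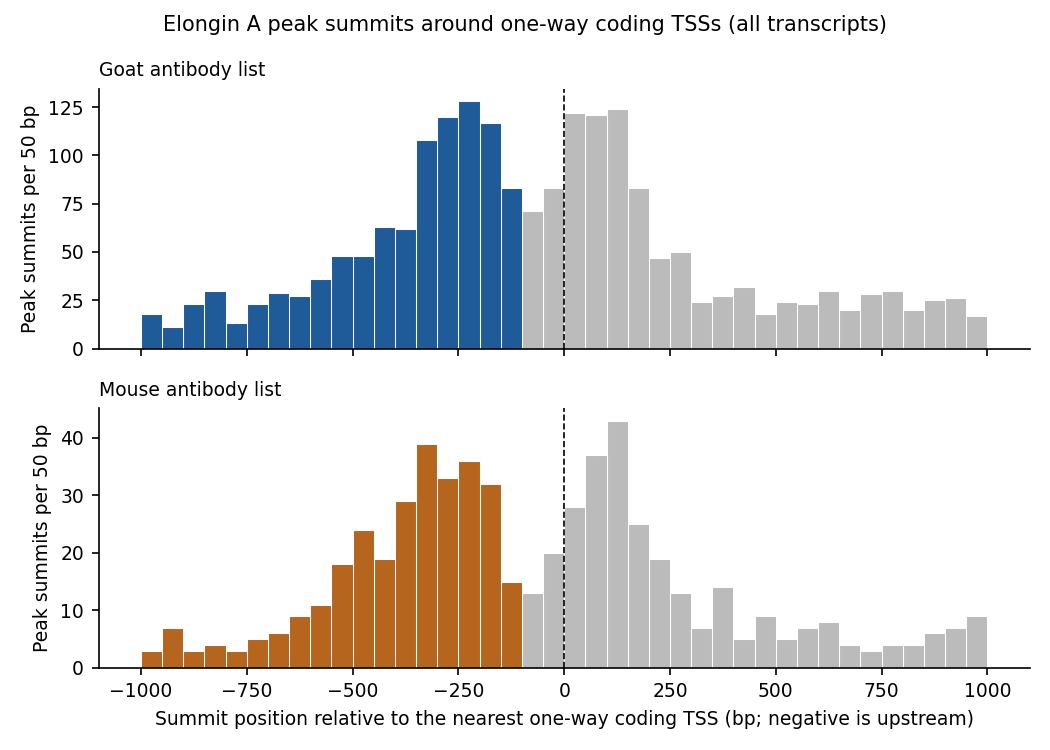
Number of peak summits per 50 bp (vertical axis) against the position relative to the nearest one-way coding TSS in bp (horizontal axis, upstream negative), for the goat antibody list above and the mouse antibody list below, with the summits 100 to 1000 bp upstream in colour. In the goat antibody list the upstream summits rise to 128 per 50 bp at 200 to 250 bp, while the downstream summits are most frequent in the first 200 bp.

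At the edges of the rule, the peaks just inside and just outside had overlapping heights. The nearest peaks kept were at the keratin-associated protein gene KRTAP2-3 (1 bp inside the limit, fold enrichment 5.72) and 102 bp upstream of NOLC1, a nucleolar phosphoprotein gene (2.72), and the nearest peaks left out were both 100 bp upstream, at SNAP47 (4.19) and the histone acetyltransferase gene KAT6B (3.33). At the far limit, peaks 999 bp upstream of an internal TSS of the cyclin gene CCND1 (6.74) and 992 bp upstream of RNF215 (3.92) were kept, and peaks at 1004 bp were left out at TRA2B (6.18), which encodes a splicing regulator, and at the arginase gene ARG2 (5.09).

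The label of an upstream promoter fits only part of these peaks. The summit was outside every protein-coding gene in 487 of 987 peaks (49.3%, 46.2 to 52.5%). In 420 (42.6%) it was inside the same gene, where the nearest TSS was an alternative one in 377 and the canonical one in 43, at a median of 10.6 kb from the outermost TSS of that gene (quartiles, 2.55 and 35.9 kb). In 47 it was inside another gene on the same strand and in 33 inside a gene on the opposite strand. The nearest TSS was the canonical one in 281 (28.5%) and an outermost TSS of a gene in 567 (57.4%). The 95% intervals of the median height overlapped between these 4 kinds of place, with median fold enrichments of 4.24 outside coding genes, 4.34 in the same gene, 4.23 in another gene on the same strand and 4.46 in a gene on the opposite strand.

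The height of a peak is its fold enrichment, the signal at the summit over the local background of the IgG control. The upstream peaks had a median of 4.32 (95% interval, 4.20 to 4.38), quartiles of 3.57 and 5.28, and a range of 2.15 to 43.6, and all goat antibody peaks also had a median of 4.32. The median was 4.31 for 33 peaks at the same distance from TSSs with a divergent coding partner, 4.34 for 399 peaks within 100 bp of a one-way TSS and 4.42 for 646 peaks 100 to 1000 bp downstream. A fold enrichment of at least 5 was found in 297 upstream peaks (30.1%), beside 30.1% of all goat antibody peaks. A fold enrichment of at least 10 was found in 17 (1.72%), beside 0.906% of the list. The intervals had a median width of 357 bp, beside 362 bp in the whole list.

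Peaks closest to the TSS had the highest median, with intervals that overlapped. The median fold enrichment was 4.46 (4.32 to 4.63) at 100 to 300 bp, 4.16 (3.99 to 4.36) at 300 to 500 bp and 4.17 (3.95 to 4.37) at 500 to 1000 bp. In 202 peaks (20.5%) the interval reached over the TSS itself, and these had a median of 4.69 (4.40 to 5.01) and a width of 621.5 bp, against 4.22 (4.13 to 4.33) and 317 bp for the other 785. A wide interval reaches the TSS more readily, so this grouping selects on width, and heights were not compared at equal width. The intervals showed no lean toward the gene, since 490 of 987 (49.6%) extended farther toward the TSS than away from it. Many heights were shared exactly, with 558 distinct values in 987 peaks, so the order of weak peaks carries little information.

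**Figure D2:**
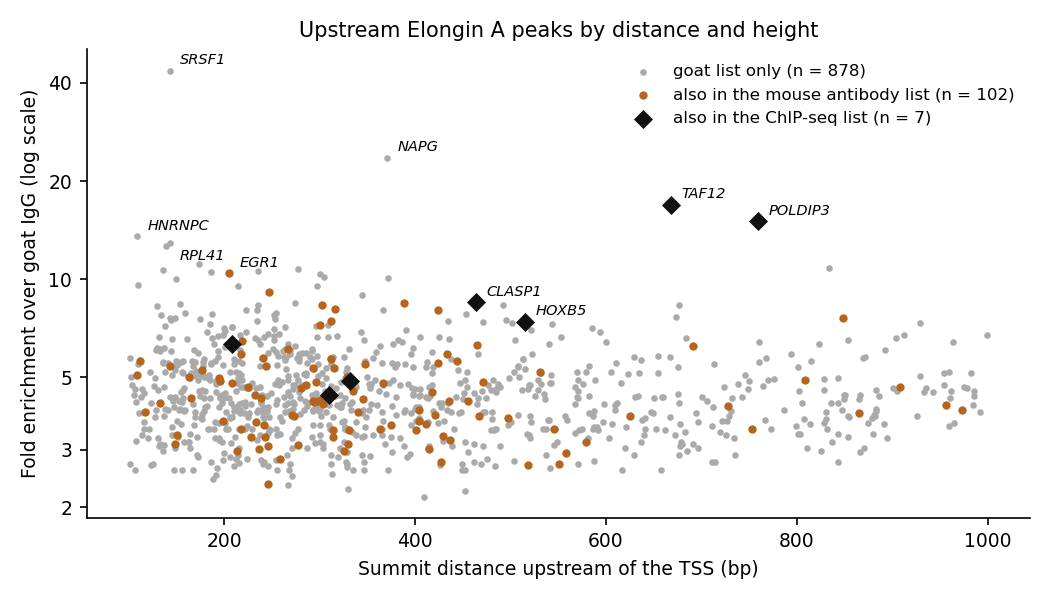
Fold enrichment over goat IgG (vertical axis, log scale) against summit distance upstream of the TSS in bp (horizontal axis) for the 987 upstream peaks, with peaks that overlapped a mouse antibody or a ChIP-seq peak marked. The quartiles lie at 3.57 and 5.28, SRSF1 stands highest at 43.6, and the peaks shared with the mouse antibody list are spread over the heights up to TAF12 at 16.9.

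The strongest upstream peaks were at SRSF1, NAPG, TAF12 and POLDIP3. SRSF1, which encodes the splicing factor SRSF1, had the highest fold enrichment of all 8720 peaks, 43.6 (−log10 q-value 279), at chr17:56083465-56085376 with the summit 143 bp upstream. It overlapped no peak of the mouse antibody or ChIP-seq lists. The next was at NAPG, a gene for a membrane fusion adaptor, with 23.6, followed by TAF12, a subunit of the general transcription factor TFIID, with 16.9, and POLDIP3, which encodes an mRNA export and translation factor, with 15. HNRNPC (13.6) encodes an RNA-binding protein of nascent transcripts and RPL41 (12.9) a ribosomal protein.

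The other peaks that reached a height of 10 were at FAM24B (12.6), the RNA demethylase gene ALKBH5 (11.1), SUSD1 (10.8), TOLLIP (10.8), which acts in Toll-like receptor signalling, PCMTD2 (10.7), the copper chaperone gene COX17 (10.6), the tumour suppressor gene APC (10.5), EGR1 (10.5), TMED3 (10.4), which acts in protein secretion, the chromatin protein gene HP1BP3 (10.1) and the zinc finger gene ZNF226 (10.1). Of these 17 peaks, 15 covered the TSS, 13 had the summit outside every coding gene, and 11 had no further goat antibody peak from that TSS onward. Counted by gene, over all upstream peaks of each, 36.6% of the 922 genes had another peak from the TSS onward. A mouse antibody peak was overlapped by 3 of the 17, beside 10.9% of all 987 upstream peaks. The remaining peaks of the 25 highest were at FAM222B (9.99), the replication kinase gene CDC7 (9.59), the RNA acetyltransferase gene NAT10 (9.53), FLYWCH2 (9.52), AQP7 (9.16), a water and glycerol channel gene, DYNLT4 (8.96), CLASP1 (8.48), a microtubule regulator, and the condensin gene SMC2 (8.44).

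A second antibody gives a readout that the rule did not use. Of the 987 upstream peaks, 108 (10.9%, 9.14 to 13.0%) overlapped a mouse antibody peak by at least 1 bp, beside 8.33% of all goat antibody peaks. The share was 6.27% (4.28 to 9.09%) for peaks within 100 bp of a one-way TSS, 7.43% (5.65 to 9.71%) for peaks downstream and 18.2% (8.61 to 34.4%) for the 33 upstream of a divergent TSS. The intervals of the upstream peaks and of the peaks at the TSS did not overlap, and those of the upstream and downstream peaks did. Peaks of 1 list are not independent samples, so these shares describe the 2 lists and are not a test.

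Where both antibodies gave a peak, the median shift between the summits was 61.5 bp (quartiles, 32.25 and 129 bp), and 75 of 108 (69.4%, 60.2 to 77.3%) lay within 100 bp of each other. Over all 726 goat antibody peaks that overlapped a mouse antibody peak the median was also 61.5 bp, and 453 (62.4%, 58.8 to 65.8%) lay within 100 bp. Overlap of the intervals itself limits how far apart the summits can be. Their heights overlapped those of the rest. Their goat antibody median was 4.26 (3.98 to 4.68), against 4.33 (4.19 to 4.39) for the 879 peaks found with the goat antibody alone. From the lowest to the highest quintile of goat fold enrichment, the shares overlapping a mouse antibody peak were 12.2, 10.6, 9.14, 11.1 and 11.7%. The shared peaks were wider, with a median of 459 bp against 349 bp. By distance the share was 10.3% at 100 to 300 bp, 15.3% (11.6 to 20%) at 300 to 500 bp and 7.36% (4.77 to 11.2%) at 500 to 1000 bp.

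**Figure D3:**
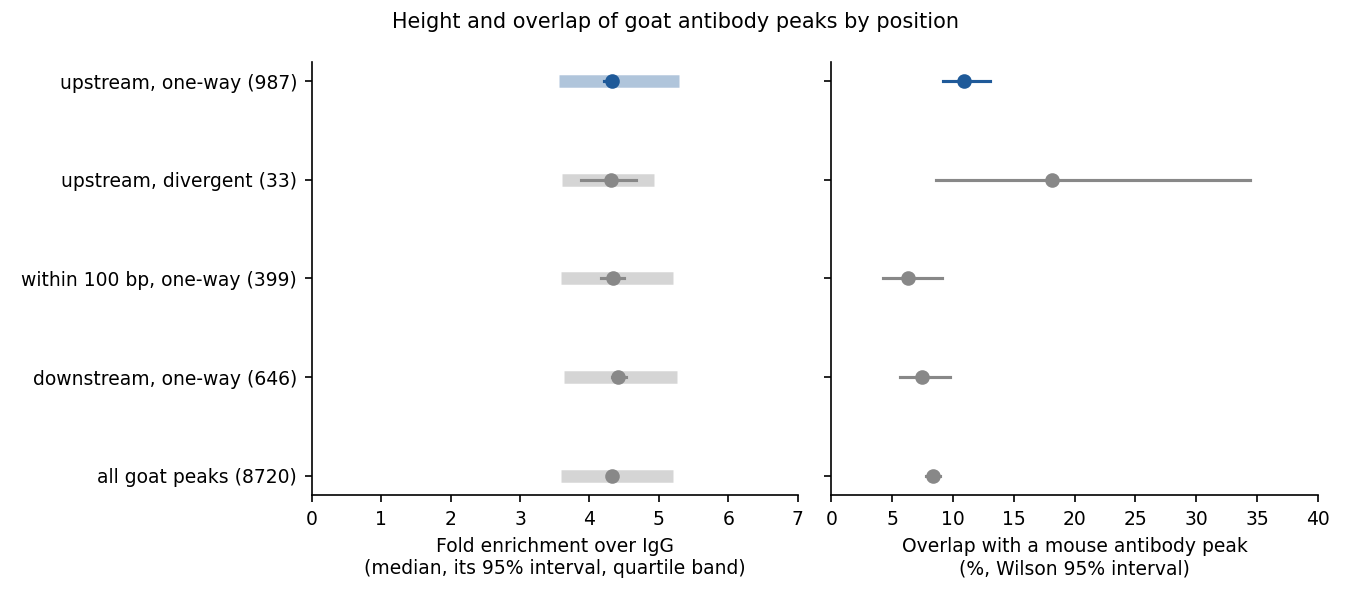
Median fold enrichment over IgG with its 95% interval and quartile band (left) and share of peaks overlapping a mouse antibody peak in percent with Wilson 95% interval (right), for 5 sets of goat antibody peaks with their numbers in brackets. The medians all lie between 4.31 and 4.42, and the overlap is 10.9% for the upstream peaks and 6.27% for peaks within 100 bp of the TSS.

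By gene, 291 genes had an upstream peak in the mouse antibody list under the same rule, and 111 of them also had one in the goat antibody list. The shared genes were 12% of the goat antibody genes and 38.1% of the mouse antibody genes, beside 1.49% of all one-way coding genes with a mouse antibody and 4.73% with a goat antibody upstream peak.

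Overlap with the ChIP-seq list was rare. Only 7 of 987 upstream peaks (0.709%, 0.344 to 1.46%) overlapped a ChIP-seq peak, beside 0.837% of all goat antibody peaks. Of these, 6 were in all 3 lists, at TAF12, POLDIP3, HOXB5, HMGXB4, H4C1 and H2AC21. At TAF12 the fold enrichments were 16.9 with the goat antibody, 8.15 with the mouse antibody and 24.1 in ChIP-seq, and the mouse antibody summit was 216 bp from that of the goat antibody. At POLDIP3 they were 15, 5.48 and 16.2, with 915 bp between both CUT&RUN summits. At HOXB5, a homeobox gene, they were 7.41, 5.97 and 7.2, and the mouse antibody summit was 17 bp away. At HMGXB4, an HMG-box gene, they were 6.34, 4.53 and 26.9. The histone genes H4C1 and H2AC21 were weaker, with 4.88, 4.42 and 5.04 at H4C1 and 4.40, 2.78 and 5.85 at H2AC21. TAF12 and POLDIP3 were the highest of the 6 with the goat antibody, and HMGXB4 was the highest of them in ChIP-seq. TAF12 had a second upstream peak, at an internal TSS, with 4.19 and 4.32 in the goat and mouse antibody lists and 43 bp between the summits.

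At 4 of the 7 peaks shared with ChIP-seq, a noncoding gene lay under the interval on the strand opposite to the coding gene. At HOXB5 it was the long noncoding RNA (lncRNA) gene HOXB-AS3. The CLASP1 peak, found with the goat antibody (8.48) and in ChIP-seq (12.5), was inside the gene and covered RNU4ATAC, a U4atac small nuclear RNA (snRNA) of the minor spliceosome, at chr2:122288457-122288583. The summit was 202 bp from it and inside the lncRNA gene CLASP1-AS1. The TAF12 peak, at chr1:28974554-28976359, covered a noncoding gene of 131 bp without a symbol, ENSG00000270103, at chr1:28975112-28975242, with the summit 229 bp from it, and reached the end of the lncRNA gene TAF12-DT. The POLDIP3 peak, at chr22:43010675-43012195, covered ENSG00000270022, at chr22:43011250-43011913, and its summit was inside that gene. The annotation classes both of these genes as lncRNA genes, and they are counted as such here, but their class was not tested. At these places the distance to the coding TSS does not say which of the genes the signal belongs to.

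Small RNA genes of any class, among them snRNA, small nucleolar RNA (snoRNA) and microRNA genes, lay under 16 upstream peaks (1.62%, 1.00 to 2.62%), beside 71 of all 8720 peaks (0.814%, 0.646 to 1.03%). A wider interval can cover more genes, and widths were not matched in this comparison. Several were snoRNA genes inside ribosomal protein genes, which carry them in introns. The RPL27A peak (7.61), 5390 bp wide, overlapped SNORA3 and SNORA45, 3926 and 2713 bp from its summit. The RPSA peak (6.32) overlapped SNORA6, the RPL4 peak (6.59) SNORD18C and the RPS3 peak (4.18) SNORD15A. A peak at the chaperone gene HSPA8 (4.58) covered SNORD14C and SNORD14D. The POLG2 peak, 8791 bp wide and the widest in the list, had its summit 303 bp upstream of the TSS and covered MIR3064 and MIR5047, 3416 and 3857 bp from the summit. Its interval, chr17:62493158-62501948, lay almost wholly upstream of the POLG2 TSS at position 62493172. Distance to that TSS therefore does not say which gene the signal belongs to.

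The lncRNA genes did not count as a partner in the rule and were examined next. A lncRNA started on the opposite strand 1 to 1000 bp upstream of the coding TSS at 166 of 987 peaks (16.8%, 14.6 to 19.3%). Among the 281 peaks at canonical TSSs it was 68 (24.2%, 19.6 to 29.5%), beside 2139 of 17373 one-way canonical TSSs in the annotation (12.3%, 11.8 to 12.8%). The latter include genes with no goat antibody peak anywhere, and genes with peaks elsewhere were not compared. Whether the difference is particular to upstream peaks was therefore not tested. Among the 17 highest peaks, such a lncRNA was annotated at TOLLIP, EGR1 and ZNF226, and at TAF12 and POLDIP3, where it was the gene of untested class described above. The lncRNA TSS nearest to the coding TSS was a median of 176 bp upstream of it (quartiles, 91.5 and 320 bp). Of the 166 summits, 38 (22.9%, 17.2 to 29.8%) lay between both TSSs, and the others lay beyond the lncRNA TSS. The rule put every summit more than 100 bp upstream. Where the lncRNA TSS was no farther than that, no summit could lie between, so this share is partly set by the rule. The median fold enrichment was 4.35 with and 4.31 without such a lncRNA, and 15.1% (10.4 to 21.3%) and 10.1% (8.23 to 12.4%) overlapped a mouse antibody peak.

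Genes with an upstream peak often had further goat antibody peaks. Of the 922 genes, 337 (36.6%, 33.5 to 39.7%) had another peak from the TSS onward, 81 (8.79%) near the TSS, from 100 bp upstream to 1000 bp downstream, 274 (29.7%) farther inside the gene and 57 (6.18%) within 1000 bp past its end. Since longer genes and internal TSSs leave room for more peaks, genes were also compared at canonical TSSs only. Of 281 genes with an upstream peak at the canonical TSS, 28.8% (23.8 to 34.4%) had another peak, beside 14.3% (13.8 to 14.8%) of 16483 one-way genes without an upstream peak. Near the TSS it was 6.05% against 2.51%, in the gene body 22.4% against 11.6%, and past the end 6.05% against 1.03%. With only peaks of at least 5 in fold enrichment, 21.2% of the genes with an upstream peak had another. At canonical TSSs it was then 14 of 83 (16.9%, 10.3 to 26.3%), beside 5.93% (5.58 to 6.29%) of the one-way genes without an upstream peak of that height. The genes without an upstream peak had none at any TSS, internal ones included, and some had no goat antibody peak anywhere. Genes with an upstream peak at the canonical TSS kept peaks at internal TSSs in their count. Whether the difference is particular to upstream peaks was therefore not tested. Most genes had 1 upstream peak (868), 45 had 2, 8 had 3, and SFPQ, which encodes a paraspeckle and splicing protein, had 5 over 13560 bp, with fold enrichments from 3.04 to 5.19.

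The genes were grouped by function. Among cytosolic ribosomal protein genes, 29 of 85 with a one-way TSS (34.1%, 24.9 to 44.7%) had an upstream peak, beside 4.73% of all one-way coding genes. The highest were at RPL41 (12.9), RPS29 (7.83, with 32 bp at the summit that occurred 3 times in the genome), RPL27A (7.61) and RPL10 (7.27). These genes are rich in goat antibody peaks anywhere, since 66 of 88 (75%) had at least 1 in the gene or within 1000 bp, beside 21.4% of all coding genes. Of their 34 upstream peaks 21 had the summit inside the same gene and 7 were at the canonical TSS, and 23 of the 29 genes had another peak from the TSS onward. In the mouse antibody list 8 of 85 (9.41%, 4.85 to 17.5%) had an upstream peak, beside 1.49% of all one-way genes. By gene, 7 had one in both lists, among them RPL3, RPL27A, RPL30, RPL37, RPL39 and RPS19. By peak, 4 of the 34 goat antibody upstream peaks overlapped a mouse antibody peak, beside 10.9% of all upstream peaks. Those at RPL3, RPL30 and RPL37 did not. Mitochondrial ribosomal protein genes had 2 of 65 (3.08%, 0.848 to 10.5%), MRPL12 (5.57) and MRPL34 (5.03).

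Genes of SR and hnRNP proteins, which bind nascent RNA and direct splicing, came next with 11 of 36 (30.6%, 18.0 to 46.9%). After SRSF1 (43.6) and HNRNPC (13.6 and 5.77 at 2 peaks) the highest was SRSF5 (6.92). Only SRSF6 (5.25) had an upstream peak with both antibodies. These genes too were rich in goat antibody peaks anywhere (73.7%, beside 21.4% of all coding genes), and 8 of their 13 upstream peaks had the summit inside the same gene. The core spliceosome, by contrast, had 2 of 41 (4.88%), U2AF1 (3.92) and SNRPE (3.26), close to the share of all genes. Translation factor genes had 7 of 68 (10.3%, 5.08 to 19.8%), led by EIF5 (6.57) and EIF3A (6.47), and EIF4G2 had peaks of 4.29 and 4.05. A goat antibody peak anywhere was found at 37.7% of translation factor genes, and all 7 genes had another peak from the TSS onward.

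Immediate early and stress genes, which cells switch on within minutes of a stimulus, had 13 of 45 (28.9%, 17.7 to 43.4%). EGR1 (10.5 with the goat and 8.23 with the mouse antibody, summits 3 bp apart) stood above EGR2 (6.02), the survival gene MCL1 (5.89) and the AP-1 gene FOSB (4.98). A goat antibody peak anywhere was found at 64.4% of these genes. In the mouse antibody list 4 of 45 had an upstream peak, EGR1, JUND, MYC and NR4A1, and all of these also had one in the goat antibody list. Genes of the WNT pathway and of intestinal regulation, relevant to a colon cancer line, had 6 of 27 (22.2%, 10.6 to 40.8%). They were APC (10.5), the transcription factor SOX9 (7.49), CCND1 (6.74), TCF7L2 (6.32), HNF4A (4.31) and RNF43 (3.53), and none of the 27 had an upstream peak in the mouse antibody list. A goat antibody peak anywhere was found at 55.6% of the 27.

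Histone genes, which are short and lie in clusters, had 8 of 60 (13.3%, 6.91 to 24.2%), all 8 at the canonical TSS. They were led by H3C10 (5.90), H4C3 (5.49), H4C1 (4.88) and H3C4 (4.73), and 3 of the 8 peaks overlapped a mouse antibody peak. A goat antibody peak anywhere was found at 53.7% of all histone genes. Because histone genes sit close together, a peak upstream of 1 gene can lie in or next to another, as at H2AC21, whose summit was inside BOLA1.

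The other groups had shares whose intervals included the 4.73% of all genes. They were glycolysis with 2 of 17 (LDHA 4.41, ALDOA 3.33), colon epithelial identity with 2 of 20 (KRT8 5.41, KRT18 4.69), oxidative phosphorylation with 7 of 74 (COX5B 6.12, UQCRC2 4.66), heat shock and chaperones with 7 of 75 (DNAJB4 6.22, HSP90AA1 6.0), cell cycle and replication with 4 of 51 (CCND1 6.74, AURKB 4.63), proteasome with 3 of 46 (PSMB2 4.12), RNAPII and elongation factors with 3 of 65 (MED15 6.63, CTR9 3.26, AFF1 3.03), and actins and tubulins with 1 of 25 (TUBA1B 5.28). The 32 bp at the summit occurred 6 times in the genome at KRT18 and 3 times at HSP90AA1. The 487 one-way C2H2 zinc finger genes named ZNF, the largest group, had 22 (4.52%, 3.0 to 6.74%), led by ZNF226 (10.1), ZNF34 (6.97), ZNF581 (6.90) and ZNF217 (6.5).

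**Figure D4:**
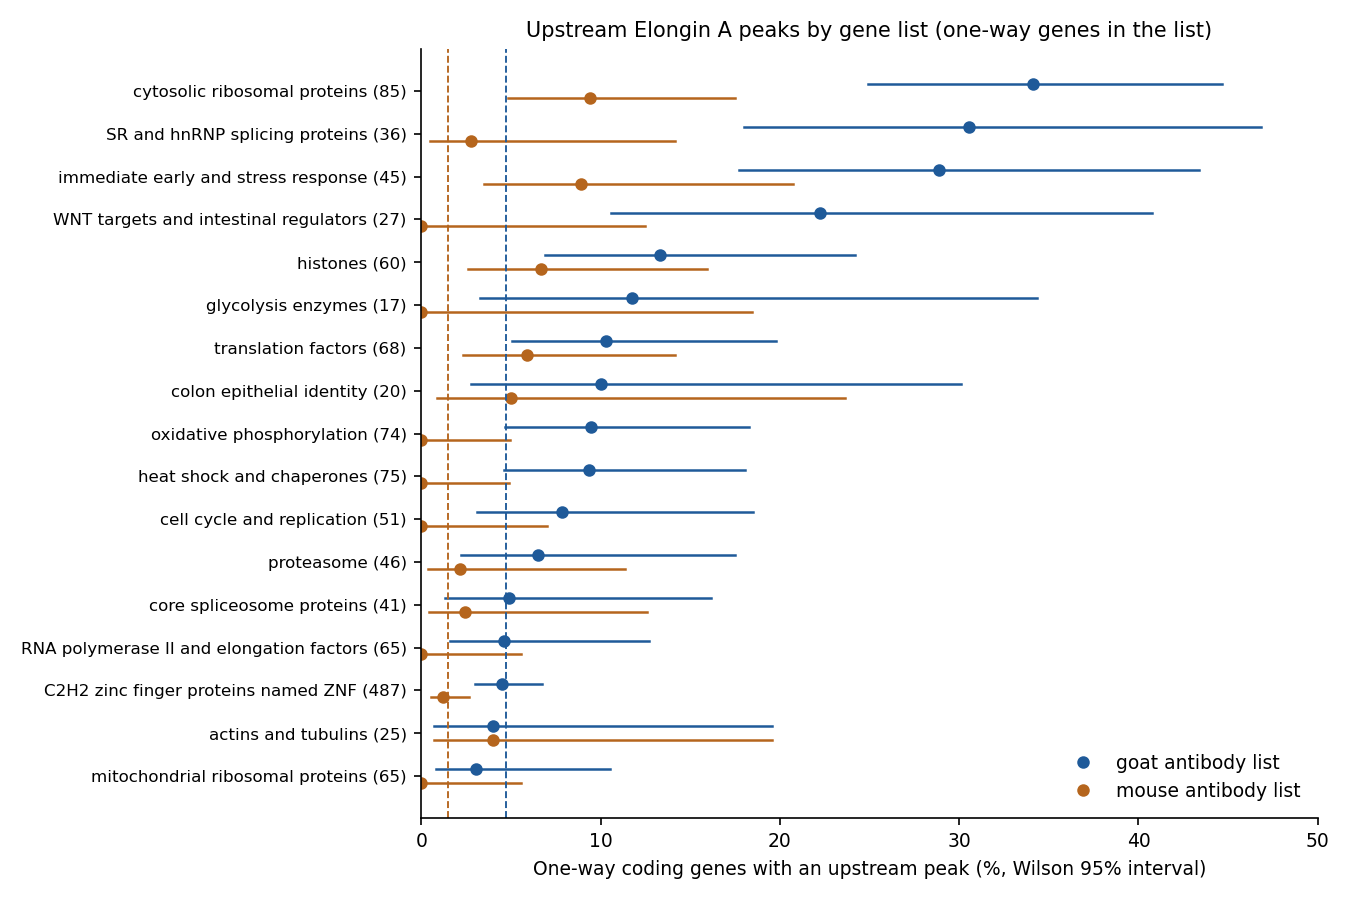
Share of the one-way coding genes of 17 groups with an upstream peak in percent (horizontal axis, points with Wilson 95% intervals) in the goat and mouse antibody lists, with the number of one-way genes in brackets. Dashed lines mark all one-way coding genes, 4.73% and 1.49%, and the groups furthest right in the goat antibody list are cytosolic ribosomal proteins (34.1%), SR and hnRNP proteins (30.6%) and immediate early genes (28.9%).

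The sequence around the upstream summits was richer in G, C and CpG than that of the whole list. In 200 bp centred on the summit the median GC content was 51.5% (quartiles, 42.5 and 59%), beside 44% for all goat antibody peaks, 58.5% for peaks within 100 bp of a one-way TSS and 50% for peaks downstream. Windows of 200 bp centred 319 bp upstream of the canonical TSS of 17355 one-way genes had a median of 54% (quartiles, 45 and 63%). Only 281 of the 987 upstream peaks were at a canonical TSS. Their median was 53.5%, and that of the 377 at alternative TSSs inside genes was 47.5%. The median ratio of observed to expected CpG was 0.515 at the upstream peaks, 0.521 in these promoter windows and 0.237 over all goat antibody peaks. A GC content of at least 60% with a CpG ratio of at least 0.6 was found at 16.8% of the upstream peaks, in 23.1% of promoter windows and at 6.16% of all goat antibody peaks. The GC content was lower farther from the TSS, with medians of 54% at 100 to 300 bp, 51.5% at 300 to 500 bp and 46% at 500 to 1000 bp. It was 53% outside coding genes and 48.5% inside the same gene. The 32 bp at the summit were not unique in the genome for 11 upstream peaks (1.11%), beside 3.18% of the list.

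**Figure D5:**
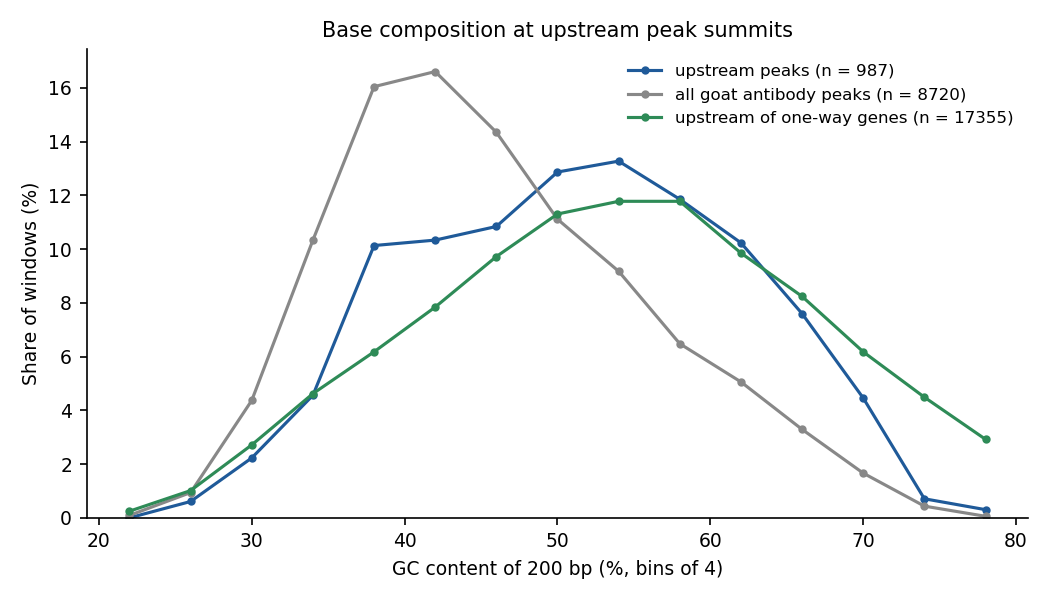
Share of 200 bp windows in percent (vertical axis) by GC content in bins of 4 percentage points (horizontal axis) for the 987 upstream peaks, all 8720 goat antibody peaks and windows 319 bp upstream of the canonical TSS of 17355 one-way genes. The upstream peaks, with a median of 51.5%, lie between all peaks (44%) and the promoter windows (54%), and no upstream peak exceeds 76.5%.

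Short motifs were compared in the same windows. The promoter windows are all at canonical TSSs, and most upstream peaks are not. The 16 words were searched on both strands in the 200 bp windows. The GC box (GGGCGG) was in 19.1% of upstream peaks (16.8 to 21.7%), 24.8% of promoter windows and 8.51% of all goat antibody peaks. The CCAAT box (CCAAT) was in 25.9% (23.3 to 28.8%), 21.8% and 24.9%, and the ETS core (CCGGAA) in 7.60% (6.11 to 9.42%), 7.0% and 3.75%. The TATA box (TATAAA) was in 10.1% (8.4 to 12.2%), 8.57% and 15.5%, the AP-1 site (TGANTCA) in 5.57% (4.31 to 7.18%), 4.40% and 8.99%, and the FOX core (TGTTTAC) in 3.65% (2.65 to 5.01%), 2.14% and 3.98%. TEAD (GGAATG) was in 10.8%, 10.0% and 12.9%, the CTCF core (AGGGGGC) in 5.47%, 7.42% and 3.33%, and the YY1 core (AAGATGG) in 3.95%, 3.0% and 3.69%.

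The rarer words were in under 3% of the upstream peaks. E2F (GCGGGAA) was in 2.74% of upstream peaks, 3.89% of promoter windows and 1.31% of all goat antibody peaks, the E-box (CACGTG) in 2.63%, 3.88% and 2.31%, TCF/LEF (CTTTGAT) in 1.82%, 2.13% and 3.38%, and the ZNF143 core (ACTACAA) in 1.82%, 1.93% and 2.12%. The NRF1 core (GCATGCGC) was in 1.42%, 0.870% and 0.550%, the ZBTB33 core (TCTCGCG) in 1.42%, 1.28% and 0.516%, and the CRE (TGACGTCA) in 0.507%, 0.455% and 0.195%. A match gives letters in a window and not a bound factor.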

How the data were processed

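Bowtie2 was used by the authors to align the reads to hg19, Picard to remove duplicates and MACS2, at default parameters, to call peaks against a control. The deposited fold enrichment is the ratio of a peak's signal to its local background, and the deposited −log10 q-value comes from the authors' peak caller. Whether the goat antibody replicates were pooled before peak calling, and which control the mouse antibody list used, is not given in the sources used here. The lists hold no read totals, so depth is unknown, and all peaks lie within the GRCh37 chromosomes.

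Positions were counted from 1. The gene annotation was GENCODE 44 on GRCh37 coordinates, with the TSSs of all transcripts of 20149 protein-coding genes (131566 of 146576 coding TSSs were one-way). The 3 peaks equally near to TSSs of different genes were kept. Peaks of different lists that shared 1 bp or more counted as overlapping. Medians have binomial order-statistic intervals at 95%. The peaks, gene groups and motifs were chosen with earlier results of these data known. Named genes are the 25 highest peaks, up to 4 of each group, the peaks in all 3 lists and those at the limits. RNF43 and HNF4A complete the group of 6, and other genes named with small RNAs, in both antibody lists, with several peaks or beside a host gene were chosen after their values were seen. Classification and overlap were tested on simulated data, with 0 of 4000 planted summits and 0 of 400 planted peaks misplaced. Python 3.11.15, numpy, scipy and pysam were used. RNA-seq, nascent RNA and RNAPII samples of the series were not analysed here.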

Additional observations from a re-analysis of the deposited data

How the results depend on the processing

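The results were recomputed under 18 alternatives, where they applied, and under 1 chosen after seeing the data, the canonical TSS of each gene only. In settings that limited the transcripts, the others counted neither as the nearest TSS nor as a partner. The overlap with mouse antibody peaks stayed between 10.5 and 12.9% in all 16 alternatives tried for it. With canonical TSSs only, 808 peaks met the rule, 66.2% of summits were upstream, the median distance was 346.5 bp, the median GC content 54%, 22.4% had an opposite lncRNA and 31.8% of genes had another peak. With basic transcripts only these last 3 were 53.5%, 20.4% and 32.9%. With a fold enrichment of at least 5, 297 peaks remained, 1.68% overlapped a ChIP-seq peak (beside 1.71% of all goat antibody peaks at that height), the median distance was 284 bp and 21.2% of genes had another peak. Stricter q-values of 0.01 and 0.001 gave a median fold enrichment of 4.46 and 4.75, and the second gave 31.5% of genes with another peak. Merging peaks within 1000 bp gave 29.4% for the latter. Peak centres in place of summits gave a median distance of 335 bp. Transcripts of type protein_coding gave a GC content of 53%, and peaks no farther than 500 bp upstream 53.5%. The other 109 of 128 recomputed values stayed within the interval of the value reported, or within 1.5 times the number of peaks. No paired analysis was possible because the lists hold no column per replicate, and for the same reason no replicate could be left out. The number of reads behind a peak is unknown, so weak peaks with shared fold enrichments cannot be ranked.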

Other observations

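The upstream peaks were 11.3% of the whole goat antibody list. By chromosome they were 84 of 357 peaks on chromosome 19 (23.5%, 19.4 to 28.2%), 80 of 482 on chromosome 17 (16.6%, 13.5 to 20.2%), 11 of 102 on chromosome X (10.8%, 6.13 to 18.3%) and 9 of 188 on chromosome 13 (4.79%, 2.54 to 8.85%). No test was made of these counts, which also depend on how many coding genes each chromosome carries. From the lowest to the highest quintile of GC content, 11.2, 13.1, 10.2, 12.1 and 8.12% of the upstream peaks overlapped a mouse antibody peak, beside 7.05, 7.28, 8.94, 10.1 and 8.26% in the quintiles of all goat antibody peaks, whose limits of GC content are lower.

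Besides SFPQ, 8 genes had 3 upstream peaks each. At CCNL1, which encodes a cyclin of RNA processing, they spanned 4766 bp with fold enrichments from 3.85 (with 32 bp at the summit that occurred 43 times in the genome) to 7.53, at the histone demethylase gene KDM6B 1358 bp with 4.11 to 6.69, and at the ribosomal protein gene RPL5 4170 bp with 3.89 to 4.49. At CFDP1 they were spread over 128021 bp.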
